A study of Mus musculus with 8 samples.

Results

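The keratin genes of the mouse were followed through 8 RNA-seq libraries of embryonic stem cells (ESCs) and of cells differentiated towards spinal motor neurons (SMNs), in wild-type lines and in lines mutant for Polycomb Repressive Complex 2 (PRC2). The members were all genes of the expression table whose symbol is Krt followed by a number, and 46 of 36808 genes met this rule. Symbols with a letter after the number, such as Krt6a, were outside it. Of the 46 genes, 26 encode type I and 20 encode type II keratins. The 4 genes Krt7, Krt8, Krt18 and Krt19 were compared, as simple epithelial keratins, with the other 42.

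Keratins are the intermediate filament proteins of epithelial cells, and a filament forms only when an acidic type I keratin pairs with a basic type II keratin. KRT8 and KRT18 are the typical pair of one-layered epithelia and of the first epithelial layers of the embryo, the trophectoderm and the extraembryonic endoderm, where the type II keratin KRT7 and the type I keratin KRT19 are often found beside them. Stratified epithelia use other pairs, such as KRT5 with KRT14 in the basal layer of the epidermis and KRT1 with KRT10 above it, and hair and its root sheaths use pairs of their own.

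PRC2 methylates histone H3 at lysine 27 (H3K27me3), a mark of repressed developmental genes, and the study asked how different amounts of this mark affect gene expression when ESCs take on a neural fate. Each condition had 1 library. The ESC libraries came from the wild-type lines E14 (129/Ola background) and CJ7 (129/S), from Suz12delta (C57/BL6), which carries a truncating Suz12 allele, and from Eednull (BALB/cR1), which carries a point mutation in Eed. The day 5 libraries came from E14, Suz12delta, Eednull and Suz12GT (129/Ola), a gene-trap line that makes a SUZ12-β-galactosidase fusion protein and keeps a lowered amount of H3K27me3, while the other mutant lines have lost nearly all of it. Differentiation was by withdrawal of the cytokine LIF and treatment with retinoic acid and a Sonic hedgehog agonist. All ESCs had been grown on irradiated mouse embryonic fibroblasts, which were removed by a short plating step before collection. A Suz12GT ESC library was not analysed here. Each mutant genotype is represented by a single cell line, so genotype, line and strain background cannot be told apart between E14 and Suz12delta or Eednull cells. The labels place CJ7 in one preparation and sequencing batch with a library whose column name is that of Eednull ESCs, so Eednull ESCs were also compared with CJ7.

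Values were FPKM, fragment numbers scaled to transcript length and to library size, so that levels can be set against each other between genes. The files gave no read counts, so the depth behind a value is unknown and no interval could be given. Suz12 was at 6.21 FPKM in Suz12delta ESCs and at 35.7 to 53.1 FPKM in the other ESC libraries. At day 5 Suz12 was at 16.2 FPKM in E14, 10.3 FPKM in Suz12GT, 11.6 FPKM in Suz12delta and 17.6 FPKM in Eednull cells. Its level thus did not set Suz12delta cells apart at day 5. Eed was at 42.4 FPKM in Eednull ESCs, where a point mutation need not lower the transcript. The summed level of 10 ESC marker genes was 506 to 1251 FPKM in the ESC libraries and 11.6 to 33.3 FPKM at day 5. That of 11 SMN marker genes at day 5 was 367 FPKM in E14 and 453 FPKM in Suz12GT cells. It was 25.8 FPKM in Suz12delta and 24 FPKM in Eednull cells. The larger sum in Suz12GT did not hold gene by gene. Of 10 SMN markers at 0.1 FPKM or more in either library, 1 was at least 2-fold higher than in E14 and 3 were lower. Of all genes, 16.8% were higher and 4.4% lower by as much. The neuronal tubulin gene Tubb3 was listed at 0 in all 8 libraries. A value of 0 can be a failed estimate, since 0 to 5 genes per library were listed at 0 while every other library had at least 10 FPKM. No difference between libraries had a replicate check. In these bulk samples, fewer cells of a type and less RNA per cell cannot be told apart.

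All 46 genes lay in the keratin clusters of the mouse genome. On NCBI build 37, 25 lay on chromosome 11 between positions 99094075 and 100131185, and 21 on chromosome 15 between positions 101177875 and 101862457. Krt7 (chr15:101241474-101260744, plus strand), Krt8 (chr15:101827142-101834773, minus strand) and Krt18 (chr15:101858647-101862457, plus strand) were in the chromosome 15 cluster, and Krt19 (chr11:100002124-100009979, minus strand) in that on chromosome 11. Krt18 is the one type I gene among the type II genes of chromosome 15, and it stood next to its partner Krt8 with 23873 bases between them.

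The bases just upstream of the start were read for the simple keratins, whose levels differed together between these libraries, and for Krt20, the other keratin of one-layered epithelia that reached 1 FPKM. RefSeq promoter windows on GRCm38.p6 were found for 33 of the 46 keratins, and Krt19 was not among them. The windows below hold the 250 bases before the start, 5′ to 3′ on the strand of the gene. Capitals mark GC boxes (GGGCGG) in Krt7, and a TATA box (TATAAA) with the letters bound by TEAD factors (GGAATG) in Krt20, on either strand. They lie at chr15:101412153-101412402 (plus, Krt7), chr15:102004343-102004592 (minus, Krt8), chr15:102027966-102028215 (plus, Krt18) and chr11:99438154-99438403 (minus, Krt20).
Krt7: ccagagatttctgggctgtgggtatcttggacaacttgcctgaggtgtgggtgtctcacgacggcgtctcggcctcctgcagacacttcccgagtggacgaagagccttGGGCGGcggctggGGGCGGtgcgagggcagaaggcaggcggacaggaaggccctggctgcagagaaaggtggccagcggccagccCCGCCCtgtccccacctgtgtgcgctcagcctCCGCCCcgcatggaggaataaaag
Krt8: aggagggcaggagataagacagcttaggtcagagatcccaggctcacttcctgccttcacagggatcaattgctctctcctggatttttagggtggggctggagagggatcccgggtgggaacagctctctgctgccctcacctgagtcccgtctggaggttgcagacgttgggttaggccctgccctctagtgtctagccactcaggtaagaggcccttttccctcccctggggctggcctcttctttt
Krt18: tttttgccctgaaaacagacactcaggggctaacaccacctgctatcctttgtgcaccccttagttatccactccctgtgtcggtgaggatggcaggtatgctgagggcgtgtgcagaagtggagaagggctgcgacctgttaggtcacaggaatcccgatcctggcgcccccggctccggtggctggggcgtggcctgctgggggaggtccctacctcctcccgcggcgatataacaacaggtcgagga
Krt20: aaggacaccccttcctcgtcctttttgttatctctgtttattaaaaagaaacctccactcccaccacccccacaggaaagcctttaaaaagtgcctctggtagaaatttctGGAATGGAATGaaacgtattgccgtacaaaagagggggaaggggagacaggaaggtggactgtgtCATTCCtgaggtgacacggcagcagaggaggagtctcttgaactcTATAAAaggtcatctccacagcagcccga

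The Krt7 window held 4 GC boxes and 16 CpG dinucleotides at 66% G and C, and that of Krt18 held 12 CpG at 60.4%. The Krt8 window held 3 CpG at 58%. The Krt20 window held 1 TATA box and 3 matches to the TEAD letters, of which the 2 farthest upstream share a base, with 5 CpG at 48%. The median was 6 CpG over all 32817 windows and 4 over those of the keratins. A TATA box was upstream of none of the 3 genes Krt7, Krt8 and Krt18 and of 15 of 30 other keratins with a window. It was in 12.4% of all windows. Krt13 had 2 windows and counted once, by a match in either. A GC box was in 1 of the 3 and in 1 of the 30, the latter Krt75, against 32.7% of all windows. The TEAD letters were in 0 of 3 and 3 of 30, against 12.6%, and the AP-1 letters TGANTCA in 0 of 3 and 1 of 30, against 6.75%. These are matches of letters only, and a window without a match says nothing of the factor.

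Few keratins were expressed at an appreciable level. Of the 46 genes, 10 reached 1 FPKM somewhere in the 8 libraries, and 4 reached 10 FPKM. Those 4 were Krt7, Krt8, Krt18 and Krt19. Another 22 reached between 0.1 and 1 FPKM, and 14 stayed below 0.1 FPKM in every library. Krt32, a hair keratin, was listed at 0 throughout. The number of keratins listed at 0 was lowest in Eednull ESCs, with 7, and highest in E14 day 5 cells, with 31. Low values are uncertain, since keratin genes share sequence with each other and with processed pseudogenes of Krt8 and Krt18, and the fragments were divided among such copies by the quantification.

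The summed level of Krt7, Krt8, Krt18 and Krt19 was 25.5 FPKM in E14, 21.9 FPKM in CJ7, 157 FPKM in Suz12delta and 83.2 FPKM in Eednull ESCs. At day 5 it was 3.35 FPKM in E14, 24.3 FPKM in Suz12GT, 213 FPKM in Suz12delta and 192 FPKM in Eednull cells. The wild-type ESC libraries were thus close to each other and to Suz12GT at day 5, E14 at day 5 was lowest, and both libraries of Suz12delta and of Eednull were highest. The other 42 keratins together were at 6.54 FPKM in E14, 16.7 FPKM in CJ7, 9.06 FPKM in Suz12delta and 12.7 FPKM in Eednull ESCs, and at 2.62, 5.19, 18 and 18 FPKM in E14, Suz12GT, Suz12delta and Eednull cells at day 5. The 4 simple keratins made up 79.6% of the summed keratin level in E14 ESCs and 56.7% in CJ7 ESCs, but 94.5% in Suz12delta and 86.7% in Eednull ESCs. At day 5 the share was 56.1% in E14, 82.4% in Suz12GT, 92.2% in Suz12delta and 91.5% in Eednull cells. Single genes made up much of the other sum where the share was low. Krt10 was 2.11 of the 2.62 FPKM in E14 cells at day 5. Krt42 was 8.77 of the 16.7 FPKM in CJ7 ESCs.

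**Figure D1:**
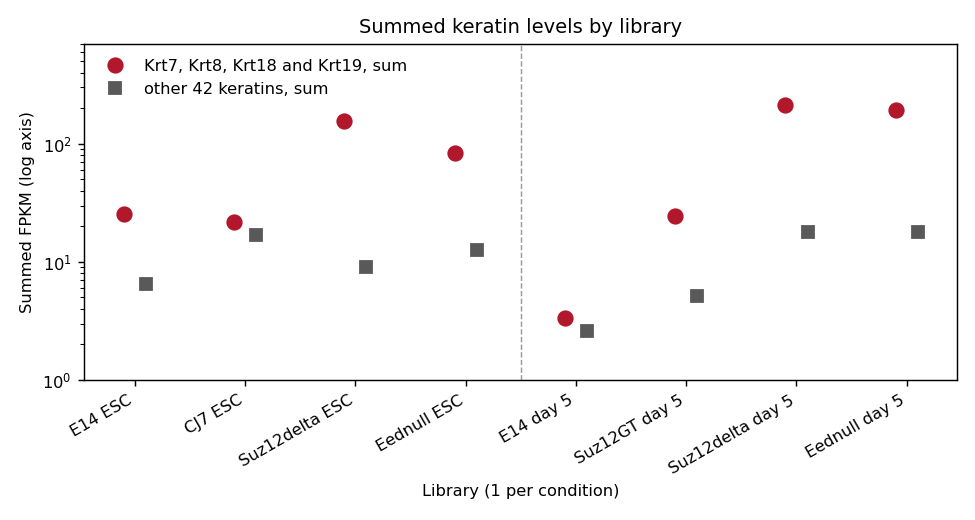
Summed FPKM (log axis) of Krt7, Krt8, Krt18 and Krt19 (circles) and of the other 42 keratins (squares) in each of the 8 libraries, with ESCs left and day 5 cells right of the dashed line. The sum of the 4 genes runs from 3.35 to 213 FPKM and that of the other 42 from 2.62 to 18 FPKM.

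Krt8 encodes the type II partner of KRT18. It was at 9.78 FPKM in E14, 7.94 FPKM in CJ7, 59.6 FPKM in Suz12delta and 27.9 FPKM in Eednull ESCs, and at 0.845 FPKM in E14, 6.42 FPKM in Suz12GT, 71.5 FPKM in Suz12delta and 53.1 FPKM in Eednull cells at day 5. Krt18, its type I partner, was at 11.5, 7.66, 47.7 and 30.6 FPKM in E14, CJ7, Suz12delta and Eednull ESCs and at 1.83, 7.66, 51.6 and 37.8 FPKM in E14, Suz12GT, Suz12delta and Eednull cells at day 5. Both genes were lowest in E14 at day 5 and highest in Suz12delta at day 5.

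Krt19, which encodes the smallest type I keratin, was at 3.59 FPKM in E14, 5.72 FPKM in CJ7, 21.6 FPKM in Suz12delta and 19.8 FPKM in Eednull ESCs. At day 5 it was at 0.490 FPKM in E14, 8.67 FPKM in Suz12GT, 61.9 FPKM in Suz12delta and 68.9 FPKM in Eednull cells. Krt7, a type II keratin of glandular and other simple epithelia, was at 0.584 FPKM in E14 and 0.618 FPKM in CJ7, against 27.6 FPKM in Suz12delta and 4.86 FPKM in Eednull ESCs. At day 5 it was at 0.181 FPKM in E14, 1.57 FPKM in Suz12GT, 27.8 FPKM in Suz12delta and 32.7 FPKM in Eednull cells. Krt7 was the lowest of the 4 genes in 7 of the 8 libraries. In Suz12delta ESCs it was above Krt19.

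**Figure D2:**
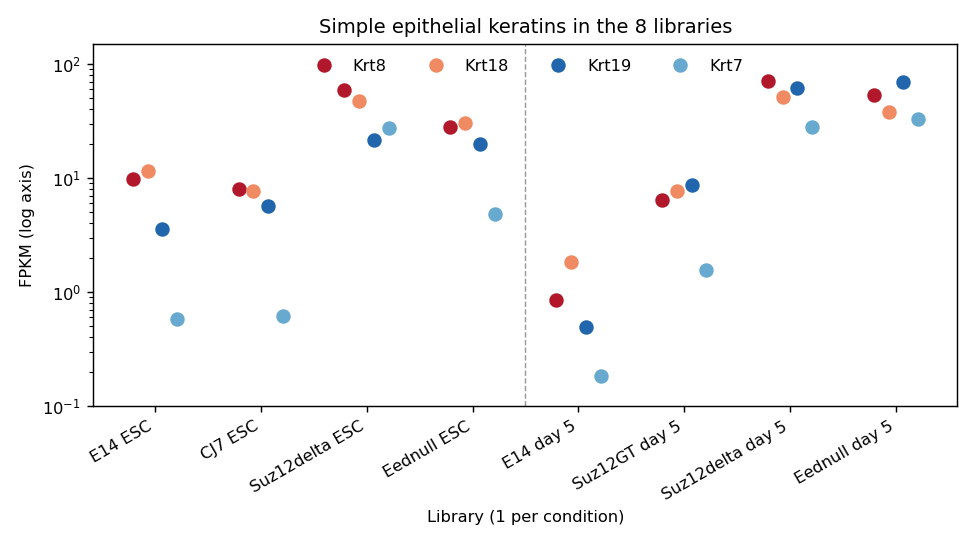
FPKM (log axis) of Krt8, Krt18, Krt19 and Krt7 in the 8 libraries, 1 point per gene and library, with ESCs left and day 5 cells right of the dashed line. Each gene is lowest in E14 day 5 cells, where the values run from 0.181 FPKM for Krt7 to 1.83 FPKM for Krt18.

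The first comparison asked what happened to keratins when wild-type cells left the ESC state. On the scale of log2(FPKM + 0.1), day 5 minus ESC, E14 cells showed differences of -3.39 for Krt8, -2.59 for Krt18, -2.64 for Krt19 and -1.28 for Krt7. All 4 genes were at least 2-fold lower, where 25.8% of the 21563 genes compared were. Their median difference was -2.62, and that of all genes compared was -0.20. Krt7 was below 1 FPKM in both libraries, at 0.584 FPKM in ESCs and 0.181 FPKM at day 5, so its difference rests on low values. Of the other 42 keratins, 7 reached 0.1 FPKM in either library and could be compared. Of these, 3 were at least 2-fold lower, 2 of them listed at 0 at day 5, and 1 was at least 2-fold higher, where 18.3% of all genes were. The one that was higher was Krt10.

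In Suz12delta and Eednull cells the simple keratins were not lower at day 5 than in ESCs. In Suz12delta cells the difference, day 5 minus ESC, was 1.52 for Krt19, 0.26 for Krt8, 0.11 for Krt18 and 0.01 for Krt7, and 1 of 4 was at least 2-fold higher, against 26.9% of all 22681 genes compared. The median of the 4 was 0.19 and that of all genes 0.43. When the libraries were scaled to the same 75th percentile, which moved the median of all genes in this comparison by -0.37, Krt7 was at -0.38, Krt8 at -0.12 and Krt18 at -0.27, so their direction depends on the scaling. In Eednull cells the difference was 2.72 for Krt7, 1.79 for Krt19, 0.93 for Krt8 and 0.30 for Krt18, with 2 of 4 at least 2-fold higher, against 18.4% of all 24638 genes compared. The median of the 4 was 1.36 and that of all genes -0.08. The batch named in the labels may lie between the Eednull ESC and day 5 libraries, and its part in this comparison was not tested.

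Among the other keratins, 20 could be compared in Suz12delta cells. Of these, 7 were higher and 5 lower by 2-fold or more at day 5, against 26.9% and 12.6% of all genes. In Eednull cells 24 could be compared, of which 4 were higher and 10 lower by 2-fold or more, against 18.4% and 24.8% of all genes. With a minimum of 1 FPKM these counts became 3 higher and 0 lower in Suz12delta and 2 lower in Eednull cells.

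The next comparison was between mutant and wild-type ESCs. In Suz12delta ESCs, Krt7 was 47.3 times its E14 level, Krt8 6.10 times, Krt19 6.01 times and Krt18 4.14 times. On the log2(FPKM + 0.1) scale, Suz12delta minus E14, these differences were 5.34, 2.60, 2.55 and 2.04, with a median of 2.57 where that of all 21980 genes compared was -0.28. All 4 were at least 2-fold higher, as were 18% of all genes. In Eednull ESCs, Krt7 was 8.33 times, Krt19 5.52 times, Krt8 2.85 times and Krt18 2.66 times its E14 level. The median log2 difference of the 4 was 1.97, against 0.04 for all 24280 genes compared, and all 4 were at least 2-fold higher, as were 22.4% of all genes.

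The wild-type lines differed less. Krt19 was 1.59 times and Krt7 1.06 times as high in CJ7 as in E14 ESCs, and Krt8 and Krt18 were at 0.812 and 0.665 times their E14 levels. None of the 4 differed by 2-fold, where 15.7% of the 23141 genes compared were higher and 14.7% lower in CJ7 by that much. Their median log2 difference was -0.11, and it was 0.09 after scaling to the same 75th percentile. Against CJ7, Eednull ESCs had 7.86 times as much Krt7, 4.0 times as much Krt18, 3.51 times as much Krt8 and 3.47 times as much Krt19. The part of the batch in these values was not tested. The corresponding ratios of Suz12delta to CJ7 were 44.7, 6.23, 7.51 and 3.77.

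The counts of the other keratins in ESCs turned on low values. A gene near 0 in E14 entered a comparison only if it was higher in the other library, so these counts describe the genes that passed and not the 42 as a group. In Suz12delta ESCs, 9 of 16 compared were at least 2-fold higher than in E14, against 18% of all genes. Of the 9, 4 were listed at 0 in E14. By as much, 1 of the 16 was lower, against 22.8% of all genes. In Eednull ESCs, 15 of 21 were at least 2-fold higher and 0 lower, against 22.4% and 11.9% of all genes. Of the 15, 8 were listed at 0 in E14. In wild-type CJ7 ESCs too, 9 of 16 were at least 2-fold higher than in E14 and 0 lower, against 15.7% and 14.7% of all genes. Of these 9, 5 were listed at 0 in E14. With a minimum of 1 FPKM the genes at least 2-fold higher than in E14 were 1 in Suz12delta, 1 in Eednull and 2 in CJ7 ESCs. With CJ7 as the wild-type ESC, 3 of the other keratins were higher and 5 lower by 2-fold or more in Suz12delta ESCs, and 5 and 3 in Eednull ESCs, while all 4 simple keratins stayed at least 2-fold higher in both lines.

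Markers of fibroblasts, the cells of the feeder layer, also differed between the ESC libraries. The summed level of 13 such genes was 126 FPKM in E14, 136 FPKM in CJ7, 835 FPKM in Suz12delta and 329 FPKM in Eednull ESCs, and none was listed at 0 in any of these libraries. At least 2-fold above E14 were 12 of 13 in Suz12delta ESCs, against 18% of all genes, and 4 of 13 in Eednull ESCs, against 22.4%. The highest values in Suz12delta ESCs were those of S100a4, at 281 FPKM against 27.9 FPKM in E14, and of the collagen gene Col1a2, at 215 FPKM against 27.4 FPKM. The part of such cells in the ESC differences of the keratins was not tested.

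At day 5 the mutant lines were compared with E14 cells, which served as the control for all of them. In Suz12delta cells Krt7 was 153 times, Krt19 126 times, Krt8 84.6 times and Krt18 28.1 times its E14 level. In Eednull cells the ratios were 180 for Krt7, 141 for Krt19, 62.9 for Krt8 and 20.6 for Krt18. In Suz12GT cells they were smaller, with 17.7 for Krt19, 8.67 for Krt7, 7.60 for Krt8 and 4.18 for Krt18. These ratios divide by E14 values of 0.181 to 1.83 FPKM, and so rest on low denominators.

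On the log2(FPKM + 0.1) scale, mutant minus E14 at day 5, the median of the 4 genes was 2.68 in Suz12GT, 6.44 in Suz12delta and 6.34 in Eednull cells. The medians of all 20840, 22069 and 21442 genes compared were 0.13, 0.26 and 0.08. All 4 genes were at least 2-fold higher in each mutant, where 16.8%, 26.6% and 21.6% of all genes were. With a pseudocount of 1 the medians of the 4 were 1.81, 4.95 and 4.85. Direct comparison placed Suz12delta above Suz12GT by a median of 3.14 and Eednull above Suz12GT by 3.0 on this scale, and the smallest single difference was 2.29, for Krt18 in Eednull cells. Between Eednull and Suz12delta at day 5 none of the 4 differed by 2-fold, with differences from -0.45 for Krt18 to 0.23 for Krt7.

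**Figure D3:**
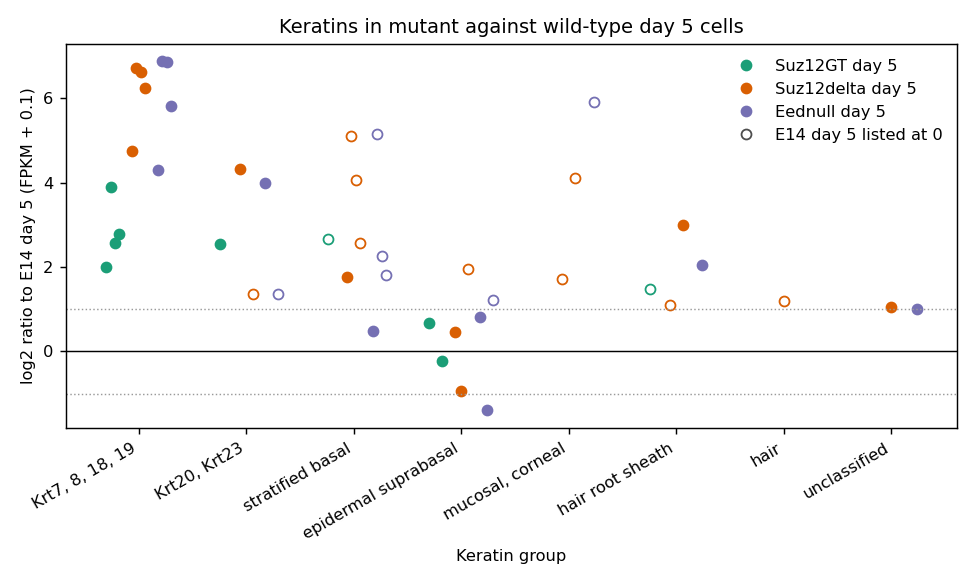
Log2 ratio of FPKM + 0.1 in each mutant line to E14 at day 5 for every keratin at 0.1 FPKM or more in either library, by keratin group, 1 point per gene. Dotted lines mark 2-fold, and open points are genes listed at 0 in E14, for which the height depends on the pseudocount. The simple keratins of Suz12delta and Eednull cells lie between 4.29 and 6.87, and those of Suz12GT cells between 2.01 and 3.89.

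Of the other keratins at day 5, 5 could be compared in Suz12GT cells. Of these, 3 were at least 2-fold higher than in E14 and 0 lower, where 16.8% and 4.4% of all genes were. In Suz12delta cells 13 of 15 were at least 2-fold higher and 0 lower, against 26.6% and 9.52% of all genes. Of the 13, 9 were listed at 0 in E14. In Eednull cells 8 of 12 were at least 2-fold higher and 1 lower, against 21.6% and 11.3% of all genes. Of the 8, 6 were listed at 0 in E14. A keratin near 0 in E14 entered these counts only if it was higher in the mutant, so the counts describe the genes that passed and not the 42 as a group. With a minimum of 1 FPKM the genes at least 2-fold higher were 1, 4 and 3.

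The balance of the 2 keratin types also varied. Type I keratins summed to 21.4 FPKM in E14, 28.9 FPKM in CJ7, 76.6 FPKM in Suz12delta and 61.6 FPKM in Eednull ESCs, and type II keratins to 10.6, 9.73, 89.0 and 34.3 FPKM. At day 5 type I keratins summed to 4.83, 21.0, 128 and 117 FPKM in E14, Suz12GT, Suz12delta and Eednull cells, and type II keratins to 1.14, 8.56, 103 and 92.9 FPKM. The ratio of type II to type I was lowest in E14 day 5 cells, at 0.235, and highest in Suz12delta ESCs, at 1.16, the only library in which type II keratins exceeded type I. It was 0.808 in Suz12delta and 0.791 in Eednull cells at day 5. The type I sum of E14 day 5 cells, 4.83 FPKM, included 2.11 FPKM of Krt10. Within the pair, the ratio of Krt8 to Krt18 was 0.849 in E14, 1.04 in CJ7, 1.25 in Suz12delta and 0.911 in Eednull ESCs, and 0.461, 0.838, 1.39 and 1.41 in E14, Suz12GT, Suz12delta and Eednull cells at day 5. The ratio of Krt19 to Krt18 was below 1 in every ESC library, from 0.312 in E14 to 0.746 in CJ7. At day 5 it was 0.267 in E14 but 1.13 in Suz12GT, 1.2 in Suz12delta and 1.82 in Eednull cells.

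**Figure D4:**
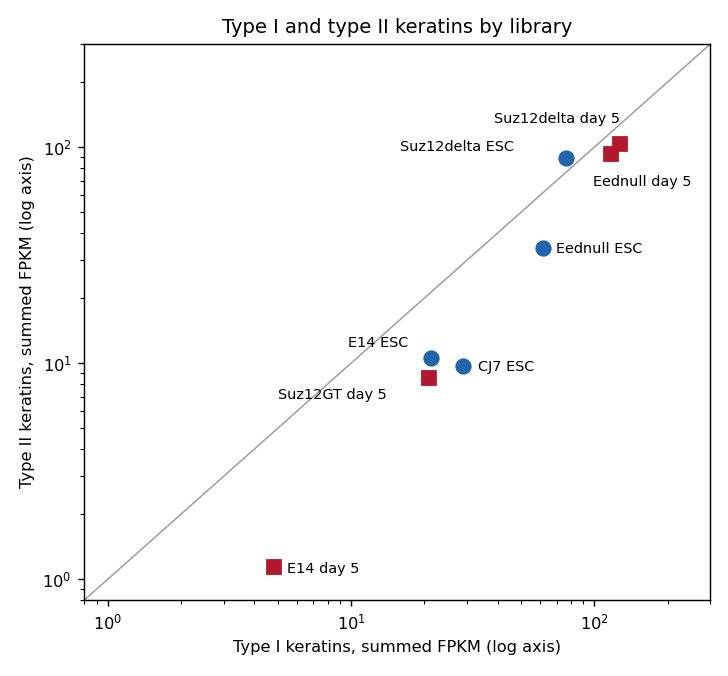
Summed FPKM of type II against type I keratins in the 8 libraries (both axes log), with circles for ESCs, squares for day 5 cells and a line where the sums are equal. Suz12delta ESCs, at 89.0 against 76.6 FPKM, lie above the line and the other 7 libraries below it.

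Among the keratins outside the simple group, 6 reached 1 FPKM. Krt20, a type I keratin of the intestinal lining and of urothelium, was at 0.141 FPKM in E14, 0.0979 FPKM in CJ7, 1.86 FPKM in Suz12delta and 0.780 FPKM in Eednull ESCs, and at 0.245, 1.90, 6.79 and 5.36 FPKM in E14, Suz12GT, Suz12delta and Eednull cells at day 5. Each mutant library was above the wild-type libraries of its day, as for the simple keratins. Relative to E14 at day 5 it was 7.78 times as high in Suz12GT, 27.8 times in Suz12delta and 21.9 times in Eednull cells. Krt23, the other gene of this group, stayed below 1 FPKM.

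Krt15, a type I keratin of basal keratinocytes and stem cells of the hair follicle, was at 0.0626 to 0.274 FPKM in the 4 ESC libraries. At day 5 it was listed at 0 in E14 and was at 0.531 FPKM in Suz12GT, 3.32 FPKM in Suz12delta and 3.44 FPKM in Eednull cells. Krt17, a keratin of activated keratinocytes, was at 1.14 FPKM in E14, 3.5 FPKM in CJ7, 1.23 FPKM in Suz12delta and 3.61 FPKM in Eednull ESCs, so CJ7 and Eednull ESCs had the higher values. By the labels and column names these libraries may share a batch, and its part in the Krt17 values was not tested. At day 5 Krt17 was listed at 0 in E14 and was at 0.0306 FPKM in Suz12GT, 1.57 FPKM in Suz12delta and 0.377 FPKM in Eednull cells. The basal epidermal pair was low everywhere, with at most 0.494 FPKM of Krt5 and 0.947 FPKM of Krt14, and Trp63, which encodes the regulator p63 of stratified epithelia, was listed at 0 in all libraries but CJ7.

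Krt4, a type II keratin of mucosal epithelia such as the oesophagus, was below 0.1 FPKM in all 4 ESC libraries and listed at 0 in E14 and Suz12GT cells at day 5. It was at 1.63 FPKM in Suz12delta and 5.92 FPKM in Eednull cells at day 5. The latter value was 212 times that of Eednull ESCs, which was 0.0279 FPKM, and the former 69.3 times that of Suz12delta ESCs, 0.0235 FPKM. Both ratios rest on low denominators. On the log2(FPKM + 0.1) scale, day 5 minus ESC, the differences of Krt4 were 5.56 in Eednull and 3.81 in Suz12delta cells. KRT13, the usual type I partner of KRT4, showed no such levels, with Krt13 at 0.230 FPKM in Suz12delta and 0.0868 FPKM in Eednull cells at day 5. Krt13 was singled out after its values were seen.

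Krt10, the type I keratin of the upper epidermis, went the other way. It was at 0.508 FPKM in E14, 0.913 FPKM in CJ7, 0.650 FPKM in Suz12delta and 0.611 FPKM in Eednull ESCs, and at 2.11 FPKM in E14, 1.78 FPKM in Suz12GT, 1.05 FPKM in Suz12delta and 0.739 FPKM in Eednull cells at day 5. E14 at day 5 was its highest library, 4.15 times the level of E14 ESCs, and Eednull cells were at 0.35 times the E14 level at day 5. Its partner Krt1 did not exceed 0.227 FPKM. Krt42, a type I keratin that fell in none of the groups, was found mainly in ESCs. It was at 3.77 FPKM in E14, 8.77 FPKM in CJ7, 0.852 FPKM in Suz12delta and 2.68 FPKM in Eednull ESCs, and at no more than 0.0314 FPKM in any day 5 library. Either mutant ESC library had less Krt42 than either wild-type one, and Suz12delta ESCs were at 0.226 times the E14 level.

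**Figure D5:**
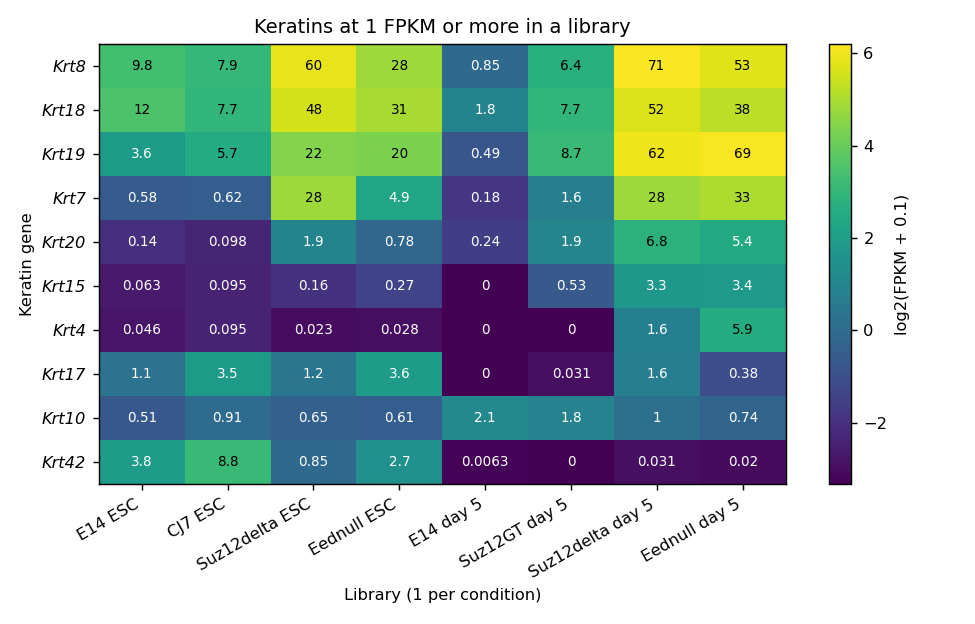
Heat map of log2(FPKM + 0.1) for the 10 keratins that reached 1 FPKM (rows) in the 8 libraries (columns), with the FPKM printed in each cell. Krt8, Krt18, Krt19, Krt7 and Krt20 are highest in Suz12delta or Eednull cells at day 5, Krt10 in E14 day 5 cells and Krt42 in the wild-type ESCs.

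The remaining groups stayed near the lower limit of the measurement. None of the 8 keratins of the hair root sheath reached 1 FPKM, and the highest value was 0.772 FPKM, for Krt75 in Suz12delta cells at day 5. None of the 12 hair keratins did, with a maximum of 0.216 FPKM for Krt36 in CJ7 ESCs. The hair keratins were all listed at 0 in E14 day 5 cells and summed to 0.244 FPKM in Eednull and 0.224 FPKM in Suz12delta cells at day 5. Of the 8 suprabasal epidermal keratins, Krt10 alone reached 1 FPKM.

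Keratin filaments are anchored at desmosomes, and the genes of these junctions were examined beside them. In E14 cells 5 of the 10 desmosome genes compared were at least 2-fold lower at day 5 than in ESCs, against 25.8% of all genes, and 0 higher. Relative to E14 at day 5, 6 of 10 were at least 2-fold higher in Suz12GT, 10 of 12 in Suz12delta and 9 of 11 in Eednull cells, against 16.8%, 26.6% and 21.6% of all genes. None was lower by as much, and the median log2 differences were 1.22, 2.29 and 2.67. Of the 12 compared in Suz12delta cells, 1 was listed at 0 in E14. Jup, which encodes plakoglobin, was at 38.7 FPKM in E14 ESCs and at 6.33, 19.8, 32.8 and 26.7 FPKM in E14, Suz12GT, Suz12delta and Eednull cells at day 5. Dsp, which encodes the desmoplakin that binds keratin filaments, was at 4.58 FPKM in E14 and 21.8 FPKM in Suz12delta cells at day 5. Of the 5 genes of hemidesmosomes and keratin linkers in the table, 1 of 4, 3 of 5 and 2 of 4 compared were at least 2-fold higher in Suz12GT, Suz12delta and Eednull cells, beside the same shares of all genes, and 1 was lower in Suz12delta cells.

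Adhesion and tight junction genes of epithelia were listed together with Esrp1 and Esrp2, which encode splicing regulators of epithelial cells. At day 5 the 12 genes summed to 48.0 FPKM in E14 and 60.6 FPKM in Suz12GT cells. The sum was 319 FPKM in Suz12delta and 345 FPKM in Eednull cells. Of 12 genes, 10 were at least 2-fold lower in E14 cells at day 5 than in ESCs, against 25.8% of all genes. Relative to E14 at day 5, 8 of 12 were at least 2-fold higher in Suz12GT, 11 of 12 in Suz12delta and 10 of 12 in Eednull cells, against 16.8%, 26.6% and 21.6% of all genes, with median log2 differences of 2.23, 5.52 and 5.37. Cdh1, which encodes E-cadherin, was at 46.8 FPKM in E14 ESCs and at 0.608, 3.96, 34.6 and 35.7 FPKM in E14, Suz12GT, Suz12delta and Eednull cells at day 5. In Suz12delta ESCs, 2 of the 12 genes of this list were at least 2-fold higher and 3 lower than in E14. There 18% of all genes were higher and 22.8% lower by as much. In Eednull ESCs 2 were higher and 2 lower, where 22.4% and 11.9% of all genes were. Of 11 transcription factor genes of epithelia compared at day 5, all 11 were at least 2-fold higher than in E14 in Suz12delta and in Eednull cells, 3 of them listed at 0 in E14, and 6 of 9 were in Suz12GT cells, with 2 of the 9 listed at 0 in E14. Genes at 0 in E14 were compared only where the mutant was higher. Among the 11 was Gata3, at 0.118 FPKM in E14, 0.772 FPKM in Suz12GT, 17.8 FPKM in Suz12delta and 15.7 FPKM in Eednull cells.

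Intermediate filament genes other than keratins, lamins included, were also compared. Of 13 genes at day 5, 4 were higher and 6 lower by 2-fold or more in Suz12delta than in E14 cells, where 26.6% of all genes were higher and 9.52% lower. In Eednull cells 2 were higher and 6 lower, where 21.6% and 11.3% of all genes were. The neurofilament gene Nefl was at 106 FPKM in E14 and 261 FPKM in Suz12GT cells at day 5, against 2.64 FPKM in Suz12delta and 2.29 FPKM in Eednull cells. Vim, which encodes vimentin, was at 399, 372, 194 and 204 FPKM in these libraries, and at 1067 FPKM in Suz12delta ESCs. The neurofilament gene Nefh, singled out after its values were seen, had another order, with 0.534, 1.61, 1.67 and 0.679 FPKM in E14, Suz12GT, Suz12delta and Eednull cells at day 5.

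Markers of cell types that express simple keratins were measured in the same libraries. The 12 endoderm markers summed to 6.51 FPKM in E14, 43.8 FPKM in Suz12GT, 62.3 FPKM in Suz12delta and 69.0 FPKM in Eednull cells at day 5, and to 5.45, 6.88, 38.5 and 65.0 FPKM in E14, CJ7, Suz12delta and Eednull ESCs. At day 5, 11, 12 and 12 of the 12 were at least 2-fold above E14 in Suz12GT, Suz12delta and Eednull cells, where 16.8%, 26.6% and 21.6% of all genes were. Afp and Gata4 were listed at 0 in E14 at day 5. Dab2 alone made up 28.6 of the 38.5 FPKM of the endoderm markers in Suz12delta ESCs. The 10 markers of parietal endoderm and its basement membrane summed to 89.8, 452, 390 and 344 FPKM in E14, Suz12GT, Suz12delta and Eednull cells at day 5, where 8 of 10 were at least 2-fold above E14 in each mutant, so Suz12GT was here not below the other mutants as it was for the keratins.

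The 11 trophoblast markers summed to 0.465, 2.85, 31.1 and 27.3 FPKM in E14, Suz12GT, Suz12delta and Eednull cells at day 5, and to 6.25, 6.09, 29.1 and 12.4 FPKM in E14, CJ7, Suz12delta and Eednull ESCs. Of those compared at day 5, 5 of 5, 7 of 7 and 8 of 8 were at least 2-fold above E14, against 16.8%, 26.6% and 21.6% of all genes. Of these, 3, 3 and 4 were listed at 0 in E14 and were compared only because the mutant was higher. Cdx2 reached 6.77 FPKM in Suz12delta cells at day 5, where Ascl2 and Tpbpa were listed at 0. The placental lactogen gene Prl3d1 was listed at 0 in all 8 libraries. Hand1 alone made up 17.9 of the 29.1 FPKM of the trophoblast markers in Suz12delta ESCs. The 7 markers of surface ectoderm summed to 0.939, 3.49, 23.6 and 16.3 FPKM at day 5, and Trp63 was at 0 in all 4. Perp, which is also one of the desmosome genes, made up 0.381, 2.87, 17.0 and 12.3 FPKM of these sums, and Krt5 and Krt14 were among the 7. Of the 12 genes of the cornified envelope, 5 of 6, 8 of 9 and 6 of 7 compared were at least 2-fold above E14, 3, 5 and 4 of which were listed at 0 in E14. The fibroblast markers summed to 6.89, 27.9, 142 and 76.7 FPKM at day 5, with 10 of 12, 13 of 13 and 13 of 13 at least 2-fold above E14, and 2, 3 and 3 of those compared were listed at 0 in E14. The part of any of these cell types in the keratin levels was not tested.

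The genes around the simple keratins did not all share their differences. Krt15 lay 4861 bases from Krt19 and had its highest values in the same 2 day 5 libraries. Krt83, a hair keratin 1177 bases from Krt7, did not exceed 0.194 FPKM in any library. Within 100 kb of Krt18, Eif4b, which encodes a translation initiation factor, was at 62.2, 49.5, 65.1 and 62.6 FPKM in E14, Suz12GT, Suz12delta and Eednull cells at day 5, while Tenc1, which encodes a tensin of focal adhesions, was at 0.172, 0.391, 3.12 and 3.02 FPKM. Of the 3 protein-coding neighbours of Krt18 that are not keratins, 1 was at least 2-fold higher in Suz12delta and in Eednull cells than in E14. None was in Suz12GT cells. Of all genes, 26.6%, 21.6% and 16.8% were higher by as much in Suz12delta, Eednull and Suz12GT cells. With 3 genes, such a count cannot be set apart from these shares.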

How the data were processed

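RNA-seq of 8 mouse libraries, 1 per condition, was analysed. FPKM values of each gene were deposited by the authors, who had aligned fragments to NCBI build 37 using Tophat 1.3.2 with Bowtie 0.12.7, and then ran Cufflinks 1.2.1 and Cuffdiff on Ensembl gene models, with correction for sequence bias and for fragments that map to several places. Versions are those in the submitters' processing notes. Such correction divides fragments among similar genes, so low values of related keratins are uncertain. Read counts, and so depth, are not in the table used, and precision could not be derived.

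Values were used as deposited. Differences are log2(FPKM + 0.1), over genes with at least 0.1 FPKM in either library compared, which understates changes of low genes. A difference of 2-fold or more was counted. No test was run, since each condition had 1 library, and computations were checked on simulated data. The members, gene lists and comparisons were chosen with earlier results of these data known. Named keratins are those at 1 FPKM or more in a library, with Krt7, Krt8, Krt18 and Krt19 in any case, and for other lists the 4 genes with the highest mean FPKM. Genes named for being listed at 0, Krt1, Krt13, Nefh, Krt23, Krt75, Krt36, Krt83, Krt5, Krt14, Trp63 and the neighbours of the simple keratins were named besides. Esrp1 and Esrp2 were named to describe their list. Keratin classes and marker lists came from general knowledge. Gene positions are from GENCODE vM1 on NCBI build 37, matched by gene ID for 46 of 46 keratins, of which 43 had the same locus in the table. Promoter windows are from RefSeq on GRCm38.p6, and no position was converted between builds.

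As alternatives, the pseudocount was set to 1 and to 0.01, the minimum was set to 1 FPKM or dropped, libraries were scaled to one 75th percentile taken over the 17842 genes above 0 throughout, and CJ7 was taken as the wild-type ESC. Python 3.11.15, NumPy 2.4.6, pandas 2.3.3 and Matplotlib 3.10.9 were used.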

Additional observations from a re-analysis of the deposited data

Results flagged for a closer look

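The change of Krt7 from ESC to day 5 had opposite directions in E14 and Eednull cells, with log2 differences of -1.28 and 2.72. The E14 change rests on 0.584 FPKM in ESCs and 0.181 FPKM at day 5, both below 1 FPKM, where no precision can be given. For Krt19 the change was -2.64 in E14, against 1.52 in Suz12delta and 1.79 in Eednull cells. Each line had 1 library per day, and the differences between lines were not tested.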

How the results depend on the processing

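Leaving out a replicate was not possible with 1 library per condition. No paired analysis was possible because each group had 1 library, so that the groups shared fewer than 2 replicate numbers and no value came from a test. The median log2 difference of Krt7, Krt8, Krt18 and Krt19 kept its direction and its side of 2-fold in 45 of 47 recomputations. The exceptions were under scaling to the same 75th percentile, with -0.20 for Suz12delta day 5 against ESC (0.19 as reported) and 0.088 for CJ7 against E14 ESCs (-0.11). Of the 47, the 9 without a minimum could not differ, since all 4 genes had passed it in every comparison. A minimum of 1 FPKM left out only Krt7, in E14 day 5 against ESC and in CJ7 against E14 ESCs. In the other comparisons this minimum could not change the median either. Counts of the other 42 keratins depended on how low values were treated. With a pseudocount of 1, those at least 2-fold higher at day 5 than in E14 numbered 1 in Suz12GT, 4 in Suz12delta and 3 in Eednull cells, and 0 were lower in Eednull cells. In the same setting 1 was higher in Suz12delta ESCs, 1 in Eednull ESCs and 2 in CJ7 ESCs than in E14, and from ESC to day 5 there were 3 higher and 0 lower in Suz12delta and 2 lower in Eednull cells. A minimum of 1 FPKM gave the same counts for these, other than the count of 0 in Eednull day 5 cells, which was 1 there. With a pseudocount of 0.01, 5 were lower at day 5 in E14, 8 were lower at day 5 in Suz12delta cells, and 1 was lower in Suz12delta than in E14 at day 5, which was also 1 after scaling. With CJ7 as the wild-type ESC, 3 were higher and 5 lower in Suz12delta, and 5 higher and 3 lower in Eednull ESCs. The scaling moved the median of all genes by 0.36 for Suz12delta ESC, 0.22 for CJ7 ESC and 0.16 for Eednull ESC against E14, by 0.14 over E14 differentiation and by -0.15 for Suz12delta against E14 at day 5. The depth of the libraries is unknown, so values below 1 FPKM cannot be given a precision.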
